A study of Mus musculus with 13 samples.

Results

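The mIMCD-3 line is an established mouse epithelial line from the inner medullary collecting duct, and the comparison described here is that of cells given a gapmer that targets Hoxb3os, a long noncoding RNA, with cells given a negative control gapmer. All cells were grown in DMEM with 10% serum, received 10 nM of either gapmer with Lipofectamine 3000 and were harvested 48 h later. RNA was extracted with Trizol and sequenced from TruSeq libraries, 3 with the Hoxb3os gapmer and 2 with the control gapmer, which are 5 of the 13 samples of the study. The other 8 are kidneys of mice with or without Pkd1 or Pkd2, and the question put to the cells, from the study's title, is which transcripts respond when Hoxb3os is targeted, with mTOR signalling as the named interest. The members are the 2016 genes that the deposited cell table lists, against 28183 genes in the kidney table. Every one of the 2016 has an adjusted p below 0.05 for this same contrast in the authors' deposited table (the highest is 0.04998), so the list is a selection made on this contrast. Genes that did not pass the authors' threshold are outside it, and the counts and directions below describe the selected genes without testing them.

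A gapmer is a short antisense oligonucleotide with a DNA centre and modified ends. It pairs with its target RNA, and the nuclease RNase H then cleaves the RNA strand of the hybrid. The mTOR kinase joins growth factor and amino acid signals to ribosome production, translation and autophagy, and its overactivity is a known feature of cystic kidney epithelium. The sequence of the control gapmer was not analysed here, a single cell line and a single targeting gapmer were used, and the labels do not say whether the replicates were separate cultures, so the spread behind each p-value may be technical.

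The targeting oligonucleotide and the sites it can pair with are shown because they tell which transcripts the gapmer could meet besides its target. The site is the reverse complement of the 16 bases of the gapmer, capitals mark bases of a site that differ from the Hoxb3os site, and positions are counted from 1 at the 5′ end of the site. Transcript sequences and positions are those of GENCODE M21 on build GRCm38.
Hoxb3os gapmer: attactgcttcttcca
Hoxb3os site: tggaagaagcagtaat
Carm1 site: tggaagaagcagGaat
Prdm11 site: tggaagaaCcagtaat
Gm47910 site: tgCaagaagcagtaat
Vrk3 site: tggaagaagcagtTCt
Kdm3a site: tACaagaagcagtaat
Clk1 site: tggaagaagcagtTaC
Scrib site: GggaagaagcagtaaC
Ccnj site: tgAaagCagcagtaat
Of all annotated transcripts, Hoxb3os-202 alone held the full site, at chr11:96348296-96348311 (minus strand), in a noncoding exon. With 1 mismatch the site occurred in 3 genes, none of them among the listed 2016. These were Carm1, an arginine methyltransferase (T13G, chr9:21592416-21592431 (plus strand), 3′ UTR of Carm1-210), Prdm11 (G9C, chr2:92965490-92965505 (minus strand), 3′ UTR) and the predicted gene Gm47910 (G3C, chr10:33582135-33582150 (minus strand), noncoding exon). With 2 mismatches it occurred in 96 genes, of which 15 were listed. The sites shown for listed genes were chosen after their values were seen: Vrk3 (A14T and A15C, chr7:44764133-44764148 (plus strand)), Kdm3a (G2A and G3C, chr6:71611518-71611533 (minus strand)), Clk1 (A14T and T16C, chr1:58421134-58421149 (minus strand)) and Scrib (T1G and T16C, chr15:76048806-76048821 (minus strand)) lie in coding exons, and Ccnj (G3A and A7C, chr19:40847260-40847275 (plus strand)) in a 3′ UTR. Introns were not searched.

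Hoxb3os itself, Hoxb2, Hoxb3 and the other Hox genes were not analysed here in the cells, since none is among the listed genes, and the extent of the knockdown is therefore unchecked for every result below. Of 18 markers of collecting duct principal cells, 3 were listed, which are the mineralocorticoid receptor Nr3c2, Tfcp2l1 and Npnt, and Aqp2, Avpr2 and Scnn1a were not among the listed genes. A gene outside the list may still be expressed, so the label of the cell type could be checked only in part. Markers of other cells were mostly outside the list as well. Of 15 fibroblast and smooth muscle genes 1 was listed, Vim (0.24 ± 0.05 on the log2 scale explained below), at 17336 and 15212 in the controls. Of 17 endothelial and blood cell genes 1 was listed, Plvap (-0.93 ± 0.17), at 144 and 124 in the controls. The epithelial marker Cdh1 was listed too (-0.42 ± 0.11), at 297 and 319 in the controls. Whether the change of Vim or Plvap came from other cells was not tested.

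Values are size-factor scaled reads, and each corresponds to a whole number of reads within 1e-06 of a read. The reads on listed genes came to 8.77 and 14.4 M in control replicates 1 and 2 and to 10.3, 7.47 and 10.4 M in Hoxb3os gapmer replicates 1, 2 and 3, which covers only the listed genes, and the full depth of the libraries is unknown. Replicates were close, with Pearson's r of log2 values across the listed genes of 0.9975 for the controls and 0.9983 to 0.9987 for the Hoxb3os gapmer, against 0.9775 to 0.9866 between groups. The first principal component took 90.0% of the variance, with the controls at -8.67 and -11.7 and the Hoxb3os gapmer libraries at 6.07, 7.38 and 6.91. Control replicate 1 lay nearer to the mean of the Hoxb3os gapmer libraries than control replicate 2 in 1431 of 2016 genes (71.0%). The controls also differed more between themselves than any pair of Hoxb3os gapmer libraries, with an SD of the log2 difference of 0.138 against 0.104 to 0.120.

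Changes are given as Hoxb3os gapmer minus control gapmer on the log2(value + 1) scale ± SE, from limma with Benjamini-Hochberg adjustment over the 2016 genes. A gene is called at an adjusted p below 0.05. Of the 2016 genes, 2015 were called (100%), 895 of them higher (44.4%) and 1120 lower (55.6%) after the Hoxb3os gapmer. In 2014 genes (99.9%) the libraries of the 2 groups did not overlap. These shares follow from how the list was made and say nothing about genes outside it. For the same reason the SEs may be too small, and the adjusted p-values throughout do not bound the share of false calls. Without control replicate 2, 1758 genes were called, 753 higher and 1005 lower, and without control replicate 1, 1973 were called, 874 higher and 1099 lower. The changes were small. The median gene that was higher rose by 15.0% and the median gene that was lower fell by 16.2%. On the log2 scale the median was 0.20 over the genes that were higher and -0.26 over those that were lower. Over all listed genes it was -0.14, and few listed genes lie near 0, so -0.14 is not the level of an unchanged gene. At 1.5-fold or more, 191 genes were called, 57 higher (2.83%) and 134 lower (6.65%). The 1 gene not called was Scd2, a stearoyl-CoA desaturase, at 75455 and 72226 in the controls and 77236, 78936 and 80845 after the Hoxb3os gapmer (0.10 ± 0.05, limma adjusted p = 0.056). The plot of change against level shows that genes of low level are listed only with large changes, as the selection requires.

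**Figure D1:**
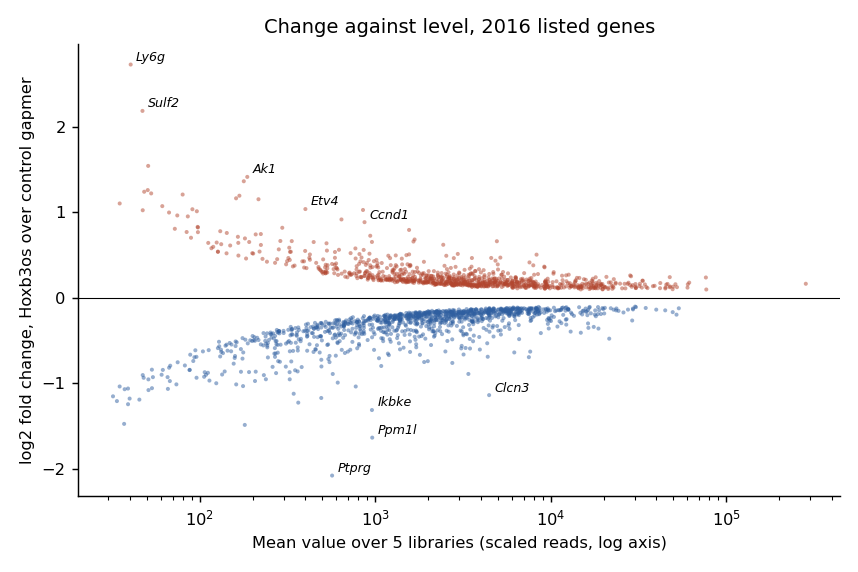
Log2 fold change (Hoxb3os over control gapmer, y axis) against the mean value over the 5 libraries (scaled reads, log x axis) for the 2016 listed genes, red for higher and blue for lower. Few genes lie near 0 because the list is a selection, and the largest changes, such as Ptprg at -2.08 and Ly6g at 2.73, lie at middle and low levels.

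The largest falls were in enzymes, receptors and adhesion genes. Ptprg, a receptor-type protein tyrosine phosphatase, was at 1031 and 1062 with the control gapmer and 243, 243 and 256 with the Hoxb3os gapmer (-2.08 ± 0.09, limma adjusted p = 8.1e-22). Every Hoxb3os gapmer library was far below both controls. Ppm1l, a phosphatase of the PP2C family, was at 1561 and 1677 in the controls and 530.1, 519 and 514 after the Hoxb3os gapmer (-1.63 ± 0.07, limma adjusted p = 1.1e-21). Ikbke, a kinase of innate immune signalling, was at 1510.1 and 1471 in the controls and 626, 600.0 and 576 after the Hoxb3os gapmer (-1.31 ± 0.07). Clcn3, an endosomal exchanger of chloride and protons, was at 6678 and 6555 in the controls and 3095, 2950.2 and 2982 after the Hoxb3os gapmer (-1.14 ± 0.05) and had the highest level of these 12 genes. In these 4 genes the Hoxb3os gapmer libraries lay close together, and the rule for naming them required that the groups not overlap. The adaptor of engulfment Gulp1 (-1.48 ± 0.14), the adhesion molecule Ncam1 (-1.22 ± 0.10), Ttc28 (-1.17 ± 0.10), the secreted matrix protein Tgfbi (-1.12 ± 0.11) and the endocytic gene Reps2 (-1.08 ± 0.23) fell too. The others were the guidance factor Sema3a (-1.06 ± 0.20), the protease Pappa, which cleaves binding proteins of insulin-like growth factors (-1.06 ± 0.23), and the choline transporter-like gene Slc44a3 (-1.04 ± 0.07).

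The 12 largest rises were in genes of lower level, where only large changes are listed. Ak1, an adenylate kinase, was at 111 and 76 with the control gapmer and 213, 268 and 263 with the Hoxb3os gapmer (1.41 ± 0.15, limma adjusted p = 2.5e-10). Lncenc1, a long noncoding RNA known from embryonic stem cells, was at 106 and 78 in the controls and 224, 249 and 233 after the Hoxb3os gapmer (1.36 ± 0.14). In both, the controls differed from each other by less than either differed from the Hoxb3os gapmer libraries. Fgf18, a fibroblast growth factor, was at 125 and 123 in the controls and 267, 270.3 and 294 after the Hoxb3os gapmer (1.15 ± 0.12, limma adjusted p = 3.5e-10). Slc26a4, which encodes pendrin, the anion exchanger of intercalated cells, was at 59.1 and 51.1 in the controls and 128, 118 and 98 after the Hoxb3os gapmer (1.04 ± 0.18). Pendrin was low in all 5 libraries, and the other listed intercalated cell genes, the carbonic anhydrases Car12 and Car2, were lower, at -0.59 ± 0.12 and -0.21 ± 0.07. The ETS factors Etv1 (1.19 ± 0.15) and Etv4 (1.04 ± 0.11), the transcription factor Ebf1 (1.21 ± 0.20), Fam212b (1.16 ± 0.15), the unconventional myosin Myo7a (1.07 ± 0.21), the immune ligand Ulbp1 (1.26 ± 0.23), the vitamin D-binding protein gene Gc (1.22 ± 0.28) and BC025446 (1.54 ± 0.26) completed the 12. Gc was the least even of them, at 44.3 and 17.3 in the controls and 75, 78.4 and 49 after the Hoxb3os gapmer, and it was not called without control replicate 2. Below the level of 50 set for naming, and chosen after their values were seen, Ly6g was at 10.2 and 6.91 in the controls and 56.5, 67.6 and 60.5 after the Hoxb3os gapmer (2.73 ± 0.29) and Sulf2, a heparan sulphate sulfatase, at 20.5 and 9.67 in the controls and 55.5, 73 and 76.8 after the Hoxb3os gapmer (2.18 ± 0.28). Both rose further than any of the 12.

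**Figure D2:**
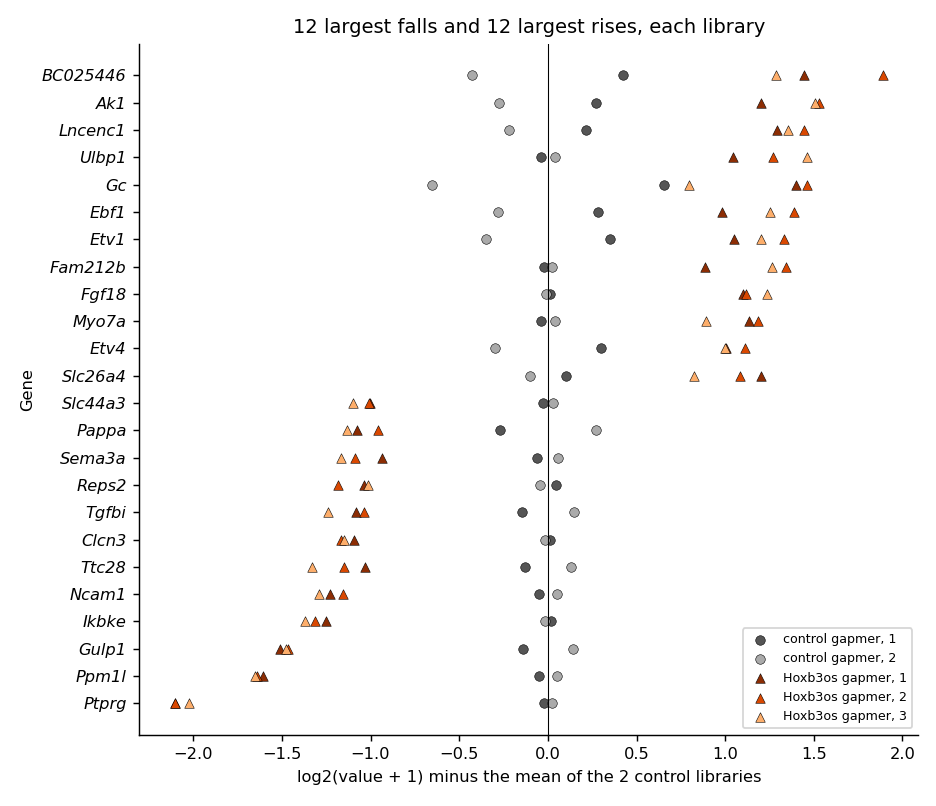
Log2(value + 1) of each library minus the mean of the 2 control libraries (x axis) for the 12 genes with the largest fall and the 12 with the largest rise (y axis). Circles are the 2 control libraries and triangles the 3 Hoxb3os gapmer libraries, and the controls lie farthest apart in Gc. The rule that named the 24 genes required that the 2 groups not overlap, which held in 99.9% of all listed genes.

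The most abundant listed genes changed by little. Among the 6 with the highest values that were higher were the elongation factor Eef1a1 (0.16 ± 0.06), the ribosomal genes Rplp0 (0.24 ± 0.05) and Rps3a1 (0.12 ± 0.05), Gnb2l1, which encodes the ribosomal scaffold RACK1 (0.16 ± 0.05), the spectrin Sptan1 (0.18 ± 0.05) and Ddb1 (0.12 ± 0.05). Among those that were lower were Psap, the precursor of the saposins of the lysosome (-0.20 ± 0.05), the ubiquitin ligase Nedd4 (-0.17 ± 0.05), mt-Nd5 (-0.15 ± 0.05), the glycolytic enzyme Tpi1 (-0.14 ± 0.05) and the chaperone Canx (-0.12 ± 0.04). Eef1a1 was at 269377 and 260224 in the controls and 300601, 298255 and 291541 after the Hoxb3os gapmer, without overlap of the groups, as in 99.9% of all listed genes. These small changes are the least stable: Eef1a1 was not called without Hoxb3os gapmer replicate 1 or 2 or under quantile scaling, and Rplp0, Rps3a1 and Gnb2l1 were not called under quantile scaling. Under TMM scaling mt-Nd5, Tpi1 and Canx were not called, Rps3a1 was not called without control replicate 2, and Tpi1 was not called without control replicate 1. Leaving out Hoxb3os gapmer replicate 1 ended the call of Rps3a1, replicate 2 that of mt-Nd5, Canx and Ddb1, and replicate 3 that of Canx.

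Between 9.09 and 20.0% of the genes of each of 4 lists for the mTOR pathway were listed. The cell table lists 2016 genes, and the number tested in the cells is unknown. The kidney table holds 28183 genes of any level. The share listed over all tested genes can therefore not be set beside these shares, here or for the other lists. Of all listed genes 55.6% were lower. Of 11 subunits of the mTOR complexes 1 was listed, Rptor, the substrate-binding subunit of mTORC1, at 3032 and 3118 in the controls and 2479, 2727 and 2716 after the Hoxb3os gapmer (-0.22 ± 0.05, limma adjusted p = 0.00026). The groups did not overlap, as in 99.9% of all listed genes. Of 33 upstream kinases and phosphatases 3 were listed, 1 higher and 2 lower, among them the insulin receptor substrate Irs2 (0.37 ± 0.07) and the AMPK subunit Prkab2 (-0.20 ± 0.06). Of 30 genes of the amino acid sensing branch 6 were listed, 2 higher and 4 lower. Fnip1, the folliculin partner that acts on the Rag GTPases, was at 5474 and 5847 in the controls and 3609, 3466 and 3459.9 after the Hoxb3os gapmer (-0.69 ± 0.05). Rragd, a Rag GTPase, was at 456 and 586 in the controls and 385, 316 and 366 after the Hoxb3os gapmer (-0.54 ± 0.10). Both fell by more than the median of the listed genes that were lower. The sestrins, which inhibit mTORC1 when leucine is short, differed in direction, with Sesn2 at 0.26 ± 0.07, Sesn1 at -0.16 ± 0.05 and Sesn3 at -0.16 ± 0.05 (not called without control replicate 2), and Sec13 of the GATOR2 complex was higher (0.16 ± 0.04). Of 21 substrates and readouts 3 were listed, the translation repressor Eif4ebp1 (0.24 ± 0.05), the translation inhibitor Pdcd4 (-0.39 ± 0.05) and Hif1a (-0.11 ± 0.04), and Hif1a lost its call under TMM scaling, with the replicate block and without control replicate 2. These are transcripts, and phosphorylation was not measured.

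Listed genes of ribosome production, translation and tRNA synthetases were mostly higher, against 44.4% of all listed genes called higher. Those of glycolysis and hypoxia, given below, were mostly lower, and the part of mTOR signalling in either was not tested. Over all listed genes the median was -0.14, and over those that were higher it was 0.20. Of 33 ribosome biogenesis genes 17 were listed and all 17 were higher, with a median of 0.20 as well. They included the rRNA methyltransferase Nop2, at 2485 and 2487 in the controls and 2850.1, 3222 and 2951 after the Hoxb3os gapmer (0.27 ± 0.05), the helicase Ddx21 (0.22 ± 0.04), Bop1 (0.23 ± 0.05) and Tsr1 (0.26 ± 0.05). Of 45 cytoplasmic ribosomal protein genes 23 were listed, 22 higher and 1 lower, with a median of 0.14, and Rplp1 (0.25 ± 0.05), Rps2 (0.24 ± 0.05) and Rplp0 (0.24 ± 0.05) led them. The median span of the 23 genes in the genome was 4.26 kb. Of 160 listed protein-coding genes under 5 kb 106 were higher, a count that includes the short ribosomal protein genes themselves. The part of gene length in the direction of the ribosomal protein genes was not tested. The count of ribosomal protein genes called higher was 13 under quantile scaling and 9 without control replicate 2. Processed pseudogenes share reads with these genes, and how the authors counted reads that map to several places is not given in the sources read here. Of 22 translation factors 12 were listed, 11 higher and 1 lower, with Eif3c at 0.22 ± 0.04 and Eef1b2 at 0.22 ± 0.04, and 7 were called higher without control replicate 2. Of 20 tRNA synthetases 14 were listed and all were higher, with a median of 0.17. Cars, the cysteine enzyme, was at 3087 and 2869.8 in the controls and 3654, 3907 and 3750.0 after the Hoxb3os gapmer (0.34 ± 0.05), followed by Mars (0.30 ± 0.04), Iars (0.28 ± 0.04) and Tars (0.23 ± 0.05).

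Targets of ATF4, the factor that answers amino acid shortage, were nearly all higher among those listed, against 44.4% of all listed genes. Of 30, 17 were listed, 16 higher and 1 lower, with a median of 0.26. Asns, asparagine synthetase, was at 2992 and 2792 in the controls and 4014, 4062 and 3899.8 after the Hoxb3os gapmer (0.47 ± 0.05, limma adjusted p = 1.9e-10). The glutathione-degrading enzyme Chac1 (0.66 ± 0.10), Psat1 of serine synthesis (0.36 ± 0.04) and the mitochondrial folate enzyme Mthfd2 (0.36 ± 0.05) were higher too. Sesn2 belongs to this list, to the amino acid sensing list and to the p53 list. Sterol synthesis was another list of 1 direction, with 16 of 25 genes listed and all 16 higher, at a median of 0.23. Msmo1, a sterol methyl oxidase, was at 4619 and 4055 in the controls and 5599.9, 5253 and 5490.5 after the Hoxb3os gapmer (0.33 ± 0.05), and Mvd (0.37 ± 0.06) and Lss (0.27 ± 0.04) were higher. Of 17 fatty acid synthesis genes 5 were listed, with Acaca, acetyl-CoA carboxylase, lower (-0.26 ± 0.04) and Fasn (0.17 ± 0.05), Fads2 (0.12 ± 0.04) and Acly (0.12 ± 0.04) higher, of which Fads2 was not called without control replicate 2, without Hoxb3os gapmer replicate 3 or with the replicate block.

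The list with the largest median was that of genes that ERK signalling induces, many of which feed back on it. Of 15 genes 9 were listed, all higher (44.4% of all listed genes were called higher), with a median of 0.65. The ETS factor Etv4 was at 299 and 197 in the controls and 489, 526 and 486 after the Hoxb3os gapmer (1.04 ± 0.11, limma adjusted p = 6.5e-10). Dusp6, the phosphatase that inactivates ERK, was at 732 and 615 in the controls and 1119, 1133 and 1079.7 after the Hoxb3os gapmer (0.73 ± 0.07, limma adjusted p = 9.9e-11). In both, control replicate 1 was nearer to the Hoxb3os gapmer libraries. Ccnd1, cyclin D1, was at 745 and 434 in the controls and 1051, 1143 and 965 after the Hoxb3os gapmer (0.88 ± 0.11), and Dusp4, another ERK phosphatase, was at 0.65 ± 0.09. Of 14 EGF receptor ligands and receptors 4 were listed, with Nrg1 (0.49 ± 0.06), Hbegf (0.28 ± 0.06) and Egfr (0.19 ± 0.04) higher and Erbb3 (-0.20 ± 0.05) lower. Immediate early genes went both ways, 4 higher and 2 lower of 6 listed, with Atf3 at 0.39 ± 0.08, Dusp1 at 0.33 ± 0.08 and Egr1 at -0.47 ± 0.07.

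Targets of p53 and of YAP and TAZ were mostly higher as well, against 44.4% of all listed genes called higher. Of 25 p53 targets 9 were listed, 8 higher and 1 lower, with a median of 0.37. Plk2, a stress-induced kinase, was at 3881 and 3433 in the controls and 5719.8, 5841 and 5764 after the Hoxb3os gapmer (0.66 ± 0.05), and Ccng1 (0.39 ± 0.04), the antiproliferative gene Btg2 (0.37 ± 0.05) and the nuclease Aen (0.47 ± 0.07) were higher. Of 26 genes of the YAP and TAZ list 8 were listed, all higher, with a median of 0.32. Ctgf, a matricellular growth factor, was at 1194 and 973 in the controls and 1809, 2046 and 1765 after the Hoxb3os gapmer (0.79 ± 0.07, limma adjusted p = 2.4e-12), and Amotl2 (0.47 ± 0.05), Ajuba (0.32 ± 0.05) and Cyr61 (0.34 ± 0.05) were higher. Of 31 actin genes 11 were listed, 9 higher and 2 lower, with the myosin light chain Myl12a at 0.26 ± 0.04, the small GTPase Rhob at -0.36 ± 0.06 and Lima1 at -0.28 ± 0.06. Of 18 tubule injury markers 8 were listed, 6 higher and 2 lower, with Anxa3 at 0.38 ± 0.04, the TWEAK receptor Tnfrsf12a at 0.50 ± 0.07, Myc at 0.47 ± 0.08 and osteopontin (Spp1) at -0.27 ± 0.05.

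**Figure D3:**
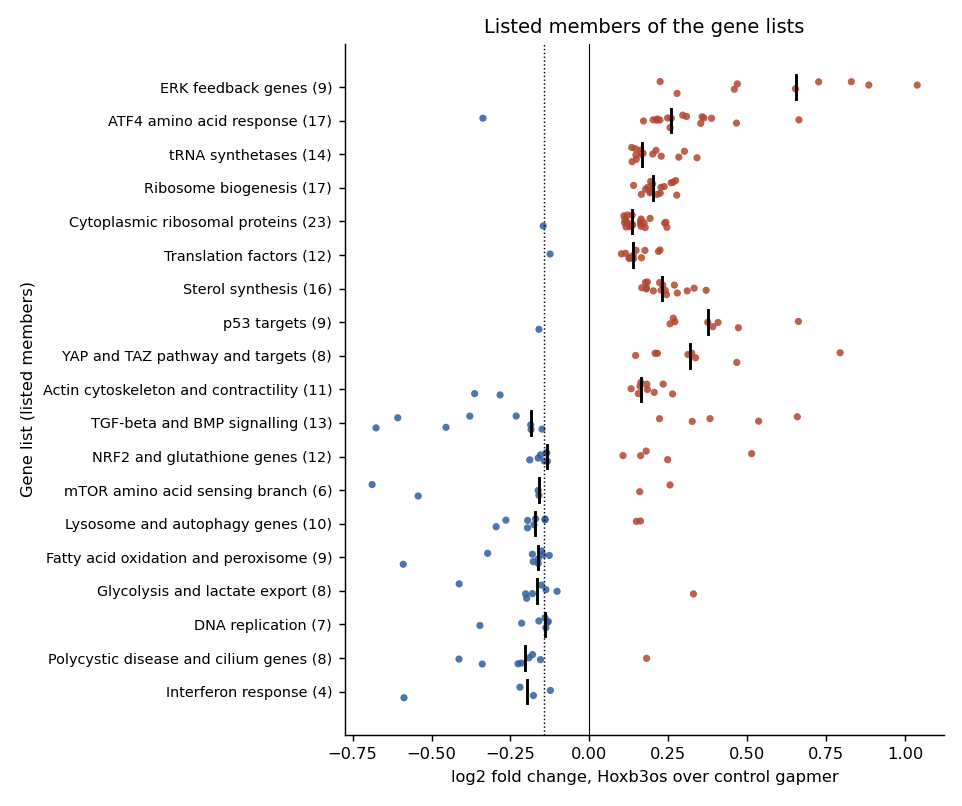
Log2 fold change (Hoxb3os over control gapmer, x axis) of the listed members of 19 gene lists (y axis, number of listed members in parentheses), red for higher and blue for lower. The thick bar is the median of each list and the dotted line the median of all listed genes at -0.14. The ERK feedback list lies farthest to the right with a median of 0.65. Over all listed genes that were higher the median was 0.20, and over those that were lower -0.26.

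In the catabolic, hypoxia and DNA replication lists more members were lower than higher, as were 55.6% of all listed genes. Of 25 genes of fatty acid oxidation and the peroxisome 9 were listed, all lower. Their median was -0.16, against -0.26 over all listed genes that were lower. Ppargc1a, the coactivator of mitochondrial genes, was at 838 and 1148 in the controls and 692, 619 and 645 after the Hoxb3os gapmer (-0.59 ± 0.09), and Cpt1a, which carries fatty acids into mitochondria, was at -0.32 ± 0.04. Of 21 genes of glycolysis and lactate export 8 were listed, 7 lower and 1 higher, with the lactate exporter Slc16a3 at -0.41 ± 0.09 (not called under quantile scaling), Gpi1 at -0.20 ± 0.04, Ldhb at -0.20 ± 0.05 and hexokinase Hk2 at 0.33 ± 0.06. All 4 listed hypoxia genes of 15 were lower, with the demethylase Kdm3a at -0.43 ± 0.05 and Ndrg1 at -0.36 ± 0.04. Kdm3a carries a near match to the gapmer, shown above. Of 34 lysosome and autophagy genes 10 were listed, 8 lower and 2 higher, led by the membrane protein Lamp2 at 12929 and 12909.7 in the controls and 10909, 10060.2 and 10630.4 after the Hoxb3os gapmer (-0.30 ± 0.04), and 5 were called lower without control replicate 2. Of 36 DNA replication genes 7 were listed, all lower, with the polymerase Pola1 at -0.35 ± 0.05 and the helicase Mcm6 at -0.21 ± 0.04.

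Beside the counts that follow, 55.6% of all listed genes were lower. Of 47 genes of polycystic disease and the cilium 8 were listed, 7 lower and 1 higher, with a median of -0.20. Pkhd1, the gene of recessive polycystic disease, was at 18816 and 21409.9 in the controls and 16592, 15739 and 15285 after the Hoxb3os gapmer (-0.34 ± 0.05, limma adjusted p = 1.4e-07). Nphp4, of the ciliary transition zone, was at -0.41 ± 0.08, Nek8 at -0.22 ± 0.06 and Dnajb11, a chaperone cofactor also named in dominant disease, at 0.18 ± 0.05. The median span of these 8 genes in the genome was 79.9 kb, against 27.0 kb over all listed genes. Of 38 keratin and epithelial adhesion genes 6 were listed, 4 lower and 2 higher, a share near that over all listed genes, with Ocln, occludin, at 152 and 139 in the controls and 95.5, 64.9 and 80.7 after the Hoxb3os gapmer (-0.87 ± 0.17), the desmosomal Dsc2 at -0.37 ± 0.07 and the claudins Cldn2 and Cldn12 at -0.36 ± 0.08 and 0.23 ± 0.05. Of 36 genes of TGF-beta and BMP signalling 13 were listed, 5 higher and 8 lower, with Ltbp1, Bmp7 and Tgfbr3 at -0.68 ± 0.09, -0.61 ± 0.08 and -0.45 ± 0.06. The 3 listed of 34 Wnt genes were Wnt4 (-0.68 ± 0.14), Fzd4 (-0.51 ± 0.06) and Fzd7 (-0.22 ± 0.06), all lower. All 4 listed of 24 collagens were lower, among them Col16a1 (-0.35 ± 0.07) and Col4a4 (-0.26 ± 0.05). The median span of these 4 genes was 136.8 kb, and of all listed genes of 100 to 200 kb 76.85% were lower. Of 27 laminin and integrin genes 8 were listed, 4 higher and 4 lower, with the laminin chain Lamc1 at -0.63 ± 0.04, dystroglycan (Dag1) at -0.39 ± 0.04 and the integrin Itga3 at 0.22 ± 0.05. The Notch ligands Jag1 and Jag2 differed in direction, at 0.68 ± 0.06 and -0.35 ± 0.07. All 4 listed genes of 30 in the interferon list were lower, among them the immunoproteasome subunit Psmb8 (-0.59 ± 0.15) and Irf1 (-0.18 ± 0.05). The 3 listed principal cell markers were lower, with Nr3c2 at 623 and 686 in the controls and 534, 496 and 508 after the Hoxb3os gapmer (-0.35 ± 0.08), Tfcp2l1 at -0.21 ± 0.06 and Npnt at -0.14 ± 0.05, and Npnt was not called without control replicate 2 or with the replicate block.

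Direction went with the length of the gene in the genome, as the plot of direction by gene length shows. Of 2004 genes with an annotation (99.4% of the list), those lower after the Hoxb3os gapmer spanned a median of 41.7 kb and those higher 15.7 kb, and in protein-coding genes alone 44.4 and 19.7 kb. Of 310 genes under 5 kb 22.9% were lower. Of 156 genes over 200 kb 90.4% were lower, and 31 of these fell by 1.5-fold or more while 4 rose by as much. In protein-coding genes alone 33.8% were lower under 5 kb and 90.9% over 200 kb. The longest genes were expressed at a lower level, with a median value of 1433 over 200 kb against 3015 under 5 kb. Pseudogenes were concentrated among the higher genes, 131 against 16 among the lower, and 138 of all 147 were processed copies. They share sequence with their parent genes, so their values are uncertain. Without pseudogenes 764 genes were called higher and 1104 lower. Ptprg spans 688 kb, Ncam1 297 kb and Sema3a 477 kb, while Ikbke spans 25.3 kb.

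**Figure D4:**
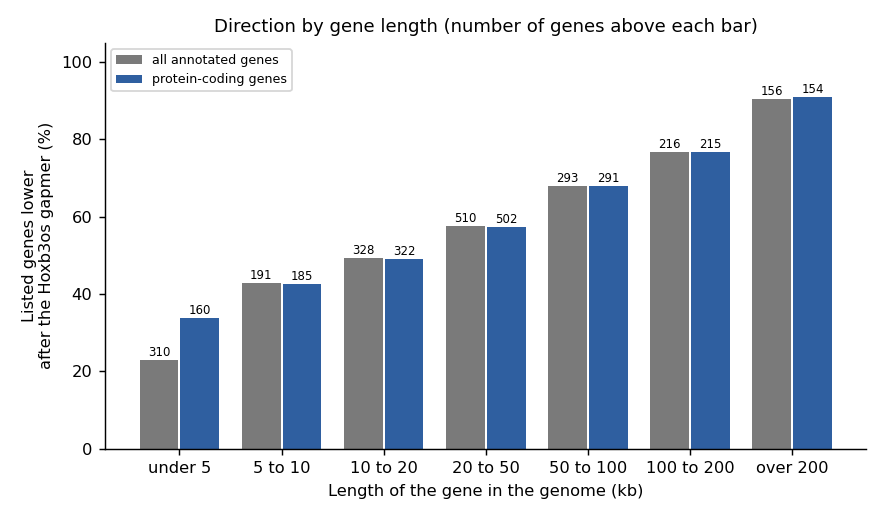
Share of listed genes that were lower after the Hoxb3os gapmer (%, y axis) by the length of the gene in the genome (kb, x axis), for all annotated genes (grey) and protein-coding genes (blue), with the number of genes above each bar. The share goes from 22.9% under 5 kb to 90.4% over 200 kb in all annotated genes.

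Direction went with the match to the gapmer too. Of the 15 listed genes whose transcripts hold the site with 2 mismatches, 13 were lower and 2 higher, 86.7% lower against 55.6% of all listed genes. These 15 genes were also longer, with a median transcript of 4627 nt and span of 41.4 kb, against 3674 nt and 27.0 kb over all listed genes. In Arhgap24 and P2rx4 the site lies in only 1 annotated transcript, a noncoding one, so the RNA counted may not hold it. Vrk3, a kinase-like nuclear protein, was at 1565 and 1619.9 in the controls and 1208, 1153 and 1171 after the Hoxb3os gapmer (-0.44 ± 0.06). Kdm3a, the hypoxia-induced histone demethylase, was at 6033 and 6246 in the controls and 4847, 4367 and 4483 after the Hoxb3os gapmer (-0.43 ± 0.05, limma adjusted p = 7e-10). Clk1, a kinase of splicing factors, was at 5819.7 and 6209.7 in the controls and 4784, 4544 and 4536 after the Hoxb3os gapmer (-0.38 ± 0.05). In these 3 genes the groups did not overlap, as in 99.9% of all listed genes. Ogt, which adds O-GlcNAc to proteins, was at 10383 and 10229 in the controls and 8192, 7338 and 7735 after the Hoxb3os gapmer (-0.41 ± 0.04), and the polarity gene Scrib at 7812 and 8370.3 in the controls and 6697, 7530.3 and 7042 after the Hoxb3os gapmer (-0.19 ± 0.05). The 2 that were higher were Arap3 (0.96 ± 0.19) and the cyclin Ccnj (0.36 ± 0.09).

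A measure of the match added after the data were seen was the longest unbroken run of bases, in any annotated transcript of the gene, that pairs with the gapmer. With a run of 6 bases 37.6% of 101 listed genes were lower, with 8 bases 55.1% of 766, with 10 bases 64.3% of 126, with 12 bases 90.9% of 22, and with 13 or 14 bases all 11. These 11 were Arhgap24, Scrib, Arid1b, Klhl11, Vrk3, Kdm3a, Zfp652, Rps6ka5, Clk1, Pde6d and an unnamed gene, ENSMUSG00000108660. Their changes ran from -0.17 in Pde6d to -0.90 in the unnamed gene, and Arid1b, a subunit of the BAF chromatin remodeller, was at 2809 and 3460.1 in the controls and 2113, 2126 and 2365 after the Hoxb3os gapmer (-0.50 ± 0.06). Genes with long runs were also listed more often, with 16.1% of the 137 annotated genes with a run of 12 bases in the list, 39.1% of the 23 with 13, and 5.72% of those with 8. The length of the transcript and the span of the gene moved with the run. The median length was 1127 nt at a run of 6, 5759 nt at 10 and 4853 nt at 13. The median span in the genome was 3.34 kb at a run of 6, 28.2 kb at 8, 70.75 kb at 10 and 39.64 kb at 13. Shares by run were not taken within classes of span. Within transcripts over 2000 and up to 4000 nt, 55.9% of 641 genes with runs under 10 bases were lower and 86.4% of 22 with runs of 11 or more. Over 4000 and up to 6000 nt the shares were 62.9% of 437 and 76.7% of 30, and over 6000 nt 68.8% of 282 and 90.0% of 30. With a run of 10 bases the shares were 52.2% of 23, 71.1% of 38 and 66.7% of 57 in these 3 length classes, so the higher share at 10 bases over all lengths was not seen within the first and the last of them. The classes of 13 and 14 bases hold 9 and 2 genes. The part of gapmer pairing in these falls was not tested. The largest falls had runs of 7 bases in Ptprg, 10 in Ppm1l and 9 in Gulp1 and Ikbke, in annotated transcripts.

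**Figure D5:**
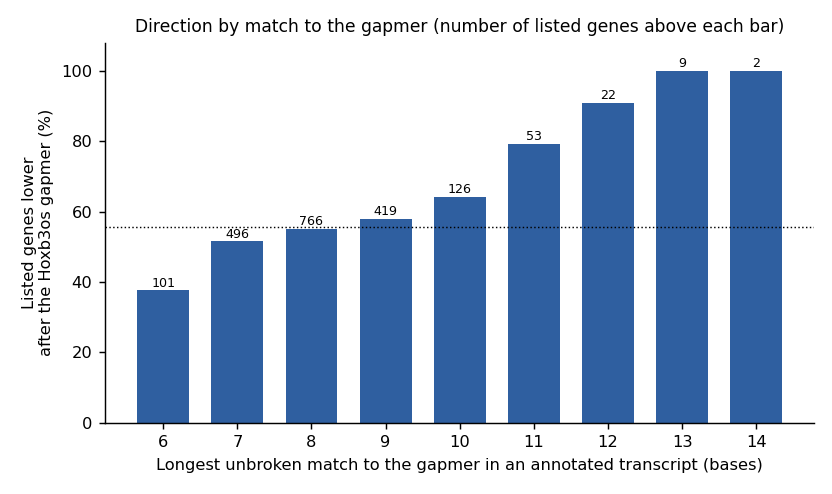
Share of listed genes that were lower after the Hoxb3os gapmer (%, y axis) by the longest unbroken match to the gapmer in an annotated transcript (bases, x axis), with the number of listed genes above each bar. The dotted line is the share over all listed genes at 55.6%, and the share goes from 37.6% at 6 bases to all 11 genes at 13 and 14 bases. The median span of the genes differs too, at 3.34 kb at 6 bases and 70.75 kb at 10 bases.

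The kidneys of the study hold the same genes in another setting, without the cell libraries. In the Pkd1 model KSP/Cre+;Pkd1f/f kidneys were set against KSP/Cre-;Pkd1f/f kidneys at postnatal day 10, and in the Pkd2 model Pkhd1/Cre+;Pkd2f/f against Pkhd1/Cre-;Pkd2f/f at day 20, with 2 libraries in each group. KSP and Pkhd1 name the promoters that drive Cre in tubule and collecting duct epithelium. The titles of the Pkd2 knockouts carry "(WT)", and they were grouped by genotype. In the authors' deposited table Hoxb3os was lower in both models, by a knockout minus control log2 difference of -1.81 (adjusted p = 0.00037) and -1.16 (adjusted p = 0.044). Its values were low throughout. In the Pkd1 model they were 2.08 and 2.56 in the controls and 0.71 and 0.59 in the knockouts. In the Pkd2 model they were 2.60 and 1.99 in the controls and 1.71 and 0.37 in the knockouts, so that fall rested mostly on knockout replicate 2. Of 886 matched genes higher after the gapmer, 6.09% were called higher and 1.92% lower in the Pkd1 knockouts by the authors' deposited table, against 3.59% and 4.35% of all 28183 genes in it. Of 1113 matched genes lower after the gapmer, 4.22% were higher and 5.75% lower there. In the Pkd2 knockouts the genes higher after the gapmer were called higher in 9.71% and lower in 2.03%, against 5.68% and 4.58% of all genes. Those lower after the gapmer were called higher in 8.27% and lower in 6.38%. The kidney table holds many genes that these cells do not list, so its shares over all genes are not matched in level.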

How the data were processed

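RNA of 5 mIMCD-3 libraries was compared, grouped by the gapmer named in the sample titles. The submitters' processing notes name Trimmomatic 0.32, STAR 2.4.2a, SAMtools 1.0 and DESeq2 1.12.3 with build GRCm38 (mm10), and the annotation and strand setting are not given in the sources read here. Cell and kidney values were deposited as a signal, which in the cells is reads over a per-library size factor, as the values themselves show: 1 read is worth 0.691 to 1.35. The authors' log2 fold changes for the cells are moderated (their slope on the log2 ratio of means is 0.647) and were not used. In the kidney table they are control minus knockout and were turned round. The authors' p-values are adjusted ones, by their column name, and decide which genes the cell table lists.

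limma 3.58.1 (trend, R 4.3.3) was fitted to log2(value + 1) of the 2016 genes over the 5 libraries, leaving 3 residual and 36.2 prior degrees of freedom, and called genes at a Benjamini-Hochberg adjusted p below 0.05. The log2(value + 1) scale understates the change of low genes. edgeR 4.0.16 and DESeq2 1.42.0 on the recovered reads, other scalings, pseudocounts, a filter, a replicate block and left-out libraries were alternatives. Where a lone control remained, it was assumed to vary like the other group. The fits were tested on simulated data.

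Gene sites and spans come from GENCODE M21 (GRCm38). The gapmer was compared with every annotated transcript. Named genes are the 12 largest rises and 12 largest falls with a mean value of at least 50 and no overlap of groups (small RNAs, pseudogenes and predicted genes skipped), the 6 with the highest values each way, the 4 members of lowest adjusted p in each list with at least 3 listed members, all listed mTOR members, and genes not called. Vim, Plvap, Cdh1, Mt1, Mt2, Skap1 and its neighbours, and genes with near matches to the gapmer are outside that rule. They were chosen after their values were seen. The members and gene lists were chosen with earlier results of these data known, and lists are described by counts and medians without a test. Some genes belong to more than 1 list, and some genes are not reported here.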

Additional observations from a re-analysis of the deposited data

How the results depend on the processing

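Of the choices tried, a minimum fold of 1.5 changed the counts most, to 191 called genes, 57 higher and 134 lower. The other counts stayed within 1.5 times of 2015 called, 895 higher and 1120 lower: 1819 (858 and 961) with quantile scaling, 1952 (896 and 1056) with TMM scaling, 1978 (866 and 1112) without limma's trend, 2015 with a pseudocount of 0.1 or 10 and with a mean value of at least 10, and 2016 (896 and 1120) with both edgeR and DESeq2 on the recovered reads. With the replicate block 1967 genes were called, 877 higher and 1090 lower. Control and Hoxb3os gapmer libraries share only numbers 1 and 2, and the residual correlations of same-numbered libraries were -0.10 and -0.10. A crossed pairing gave 0.10, which arithmetic fixes, since the residuals of 2 controls mirror each other. The block was not used, and these values cannot tell whether same-numbered libraries were paired. Leaving out 1 library at a time gave 1758 to 2001 called genes (753 to 882 higher and 1005 to 1119 lower), with the lowest count without control replicate 2. No gene changed sign in these settings except 3 under quantile scaling. Scd2 turned to -0.0499 under quantile scaling, where it was not called, and the cause was not tested. Of the 203 named genes 16 lost their call without control replicate 2, 3 to 4 without any other single library, 13 under quantile scaling, 6 under TMM scaling and 4 with the replicate block. Without processed and other pseudogenes, a setting added after the data were seen, 1868 genes were called, 764 higher and 1104 lower. The median change over the listed genes was -0.14, -0.11 with quantile scaling and -0.10 with TMM scaling. Since all genes were selected on this contrast, these counts say how the selected genes behave and not how many genes respond. Low genes rest on few reads, with 9 to 18 reads for the lowest gene of each library, and the depth on genes outside the list is unknown.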

Other observations

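Further groups of genes moved by less or were thinly listed, and their counts stand beside 44.4% higher and 55.6% lower over all listed genes. The metallothioneins Mt1 and Mt2, which bind zinc and copper, were lower, with Mt1 at 2219.6 and 2139 in the controls and 1563, 1597 and 1637 after the Hoxb3os gapmer (-0.45 ± 0.05) and Mt2 at -0.40 ± 0.08. Of 30 mitosis genes 6 were listed, 5 lower and 1 higher, with Nusap1 at -0.23 ± 0.04 and Prc1 at -0.18 ± 0.04. Of 19 clock genes 5 were listed, 4 lower and 1 higher, with Nr1d2 at -0.23 ± 0.05, Per3 at -0.23 ± 0.07 and Per1 at 0.22 ± 0.06. Of 28 NRF2 and glutathione genes 5 were higher and 7 lower of 12 listed rows (Gstp1 has 2 rows), with Gstm2 at 0.51 ± 0.05, Hmox1 at 0.25 ± 0.05 and Gstm1 at -0.19 ± 0.05. Chaperones and proteasome subunits were mostly higher by a little, with Hspa5 at 0.15 ± 0.05, Hsph1 at 0.17 ± 0.04 and Psmd12 at 0.16 ± 0.04, and Hspa5 and Psmd12 were not called without control replicate 2. The chromatin regulator Ezh2 was at -0.17 ± 0.04, the embryonic factor Sox11 at 0.35 ± 0.07, the kidney developmental factors Eya1 and Sall1 at -0.41 ± 0.08 and -0.25 ± 0.06 (Sall1 and Per3 were not called without control replicate 2), and Stat3 and its inhibitor Socs3 at -0.18 ± 0.04 and -0.26 ± 0.07.

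Around the Hoxb3os gene (chr11:96343072-96354691, minus strand, GRCm38), the nearest listed gene was Skap1, an adaptor protein gene on the plus strand, 109.9 kb away, at 106 and 137 in the controls and 81.9, 63.5 and 77.8 after the Hoxb3os gapmer (-0.69 ± 0.18). Within 1000 kb lay 9 listed genes, 3 of them higher, which were Igf2bp1 (0.33 ± 0.05), Snx11 (0.22 ± 0.07) and Slc35b1 (0.16 ± 0.05). The other 6 were lower, among them Prr15l (-0.53 ± 0.08) and Zfp652 (-0.42 ± 0.05). Zfp652 lies 508.0 kb away and is also a gene with a run of 13 bases that pairs with the gapmer. Over the whole of chromosome 11, 57.7% of 182 listed genes were lower, against 55.6% of all listed genes, and over the chromosomes with 50 or more listed genes the share ran from 46.3% on chromosome 18 to 63.2% on chromosome 10.

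Promoters from RefSeq (GRCm38.p6, 250 bases before to 50 after the start) were found for 578 genes that were higher and 855 that were lower. The E-box CACGTG, which reads the same on both strands, was in 10.1% of the promoters of higher genes, 8.65% of those of lower genes and 7.15% of all 32851 promoters. CCAAT or its reverse ATTGG was in 40.5%, 35.8% and 37.4%, and GGAATG or CATTCC in 14.8%, 10.9% and 14.7%. TATAAA or TTTATA was in 8.29%, 7.75% and 13.6%, and TTTGAA or TTCAAA in 11.7%, 10.7% and 17.9%. These matches describe letters only.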
